A study of Mus musculus with 6 samples.

Results

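The natriuretic peptide system and the marker genes of cardiac hypertrophy were examined in hearts of mice that lack the melanocortin-4 receptor, a G protein-coupled receptor known for its role in appetite and body weight. The 10 genes were chosen by name from the 54532 genes of the deposited table: the peptide genes Nppa and Nppb, the receptor genes Npr1, Npr2 and Npr3, the sarcomere genes Myh7 and Acta1, and the load-responsive genes Ankrd1, Xirp2 and Rcan1. All 10 were measured well enough to be tested. The mice were male littermates on a C57B/6/N background, 3 WT and 3 Mc4r KO (Mc4r −/−, from a purchased line bred by mating heterozygotes), all 12 weeks old, with 1 library of polyadenylated RNA per mouse. How the allele was made is not given in the sources used here. The labels give the tissue as heart in one field and as muscle in another, and the study's text speaks of the left ventricle. The comparison asks whether genes that mark a loaded or enlarging heart already differ at an age at which the study looked for changes that come before impaired function.

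Atrial natriuretic peptide, encoded by Nppa, and B-type natriuretic peptide, encoded by Nppb, are hormones that the heart releases when its walls are stretched. They act on NPR1, a receptor that makes cyclic GMP, while NPR2 is the receptor of the C-type peptide and NPR3 clears natriuretic peptides from the blood. In the healthy adult mouse Nppa is made mainly by the atria, and the ventricle switches it on again, together with Nppb, the slow myosin heavy chain gene Myh7 and the skeletal actin gene Acta1, when it hypertrophies. Ankrd1 and Xirp2 encode proteins of the sarcomere and the intercalated disc that follow mechanical load, and Rcan1 encodes an inhibitor of calcineurin that is itself a target of calcineurin and NFAT signalling.

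Promoters of 4 of these genes are shown because Acta1, Myh7 and Xirp2 were lowest in the library in which Nppa was highest. Each is the 250 bases before the RefSeq start on GRCm38.p6, 5′ to 3′ on the strand of the gene, from chr4:148000472-148000721 (plus strand) for Nppa, chr8:123894776-123895025 (minus strand) for Acta1, chr14:54994627-54994876 (minus strand) for Myh7 and chr2:67445752-67446001 (plus strand) for Xirp2. Capitals mark words, on either strand, of M-CAT (CATTCC, bound by TEAD factors), GATA (GATAA or GATAG after A or T), the Nkx2-5 word TNAAGTG and the CArG box, to which serum response factor binds.
Nppa: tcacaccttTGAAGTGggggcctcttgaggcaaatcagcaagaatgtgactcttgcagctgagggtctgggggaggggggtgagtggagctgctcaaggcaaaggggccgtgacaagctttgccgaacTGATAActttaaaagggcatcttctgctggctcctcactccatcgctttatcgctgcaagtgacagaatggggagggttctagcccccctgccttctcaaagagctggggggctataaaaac
Acta1: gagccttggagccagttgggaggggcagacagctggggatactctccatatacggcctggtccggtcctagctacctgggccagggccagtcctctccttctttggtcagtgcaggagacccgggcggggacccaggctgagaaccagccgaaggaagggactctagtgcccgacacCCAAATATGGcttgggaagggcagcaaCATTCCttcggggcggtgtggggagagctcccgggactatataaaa
Myh7: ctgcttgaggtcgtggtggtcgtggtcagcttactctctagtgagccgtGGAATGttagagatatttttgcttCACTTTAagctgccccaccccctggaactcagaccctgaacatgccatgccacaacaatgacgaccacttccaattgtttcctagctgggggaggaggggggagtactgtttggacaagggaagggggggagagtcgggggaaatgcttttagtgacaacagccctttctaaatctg
Xirp2: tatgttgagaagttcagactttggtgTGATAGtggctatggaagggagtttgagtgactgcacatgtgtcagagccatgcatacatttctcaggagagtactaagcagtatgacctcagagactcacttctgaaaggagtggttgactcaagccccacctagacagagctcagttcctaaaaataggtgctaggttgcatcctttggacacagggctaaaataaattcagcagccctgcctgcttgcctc

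In the Nppa promoter a GATA word lay 122 to 117 bases before the start and an Nkx2-5 word 241 to 235 bases before it. The Acta1 promoter held a CArG box at 73 to 64 bases and an M-CAT word at 46 to 41 bases before the start. Myh7 had an M-CAT word at 201 to 196 bases and an Nkx2-5 word at 177 to 171 bases before the start used here, while the window of its second RefSeq start, 77 bases downstream, held none of the 4 words. Xirp2 had a GATA word at 224 to 219 bases before its start. The windows of Nppb and Ankrd1, which overlap annotated exons and are not printed, held 1 and 2 M-CAT words and 2 and 1 GATA words. No such word was found in the windows of Npr1, Npr2, Npr3 or Rcan1. Among all 32851 promoter windows of this length, 12.6% held M-CAT, 26.5% GATA, 10.1% the Nkx2-5 word and 1.47% a CArG box, so matches to GATA and M-CAT are common and describe the sequence only.

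Expression was given as FPKM, fragments per kilobase of gene scaled to a library size, so levels can be compared between genes. That size was not the number of reads counted on genes (1.70e+07 against 16047003 in WT replicate 3). Between 14691076 and 16047003 reads per library were counted on genes. Sequencing was paired-end, and the sources used here do not say whether a counted read is a single read or a pair. Transcripts of the mitochondrial chromosome made up 47.1% to 59.3% of the summed FPKM in WT and 43.0% to 46.6% in Mc4r KO, without overlap. Mc4r itself cannot check the labels in this tissue, since it had 2 reads in WT replicate 3 and 0 in the other libraries, below the floor of 3 reads. Ventricular markers were abundant, and their summed FPKM (9 genes) was somewhat higher in Mc4r KO without overlap (9862 to 10262 in WT and 10489 to 11239 in Mc4r KO). Of the 9, only Myl2 lay above without overlap by itself (2003 to 2153 and 2196 to 2400.0), as did 14.1% of all genes. Tnni3, Ttn and Pln had negative log2 differences (−0.005, −0.07 and −0.33), and none of the 9 was called. Skeletal muscle markers were low (summed FPKM of 11 genes 6.32 to 9.99), with Myh4 at 0 in each library, Myh2 at most 0.0298, Actn3 at most 0.609 and Tnnt3 at most 0.484, while Tnnt1 (2.27 to 6.31) and Mybpc2 (0.878 to 4.42) made up most of the sum.

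Atrial markers separated the libraries in a way the genotype labels do not. Their summed FPKM (9 genes) was 18.9 in the first WT library, 67.7 in the second and 606 in WT replicate 3, against 84.9, 17.3 and 25.4 in the Mc4r KO libraries. Sln, which encodes the atrial regulator sarcolipin, was at 0 in WT replicate 1 and in Mc4r KO replicates 2 and 3, and stood at 8.35 in WT replicate 2, at 68.8 in WT replicate 3 and at 8.99 in Mc4r KO replicate 1. The atrial myosin light chain gene Myl7 was at 0.240, 28.1 and 307 in WT and at 38.8, 0.558 and 0.528 in Mc4r KO, and Myl4 had the same order of high and low libraries (0.184 to 57.2 in WT, 0.296 to 7.68 in Mc4r KO). WT replicate 3 thus carried far more atrial transcript than any other library, and the differences of the 10 genes are given with and without it. It was also the WT library nearest to Mc4r KO in the mitochondrial share of summed FPKM (47.1%, against 59.3% and 57.4% in WT replicates 1 and 2). Fits without it keep only those 2 WT libraries. In RNA from whole tissue, more or fewer cells of a type and more or less RNA per cell cannot be told apart.

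None of the 10 genes passed the test between Mc4r KO and WT (limma with Benjamini-Hochberg adjustment, adjusted p under 0.05 and a log2 fold change beyond 0.75 in either direction), where 0.46% of the 18035 genes tested did (0.316% higher and 0.144% lower in Mc4r KO). Nor did any of them have an adjusted p under 0.05 at whatever fold, as 0.582% of all genes did. Acta1 was the only one of them with an unadjusted p under 0.05, a level that 20.9% of all genes reached. Rcan1 was the only one whose 3 Mc4r KO libraries lay above all 3 WT libraries, as did 14.1% of all genes, and none of the 10 lay below without overlap (12.4% of all genes). The median difference of the 10 genes, Mc4r KO minus WT on the log2(FPKM + 0.1) scale, was 0.05, against −0.01 over all genes tested. With limma voom on the recovered reads none was called either, where 1.76% of all genes were, and 1 had an unadjusted p under 0.05. With the atrial marker level as a covariate, a choice made after seeing the data, none was called where 2.09% of all genes were. All log2 differences below are on the log2(FPKM + 0.1) scale.

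**Figure D1:**
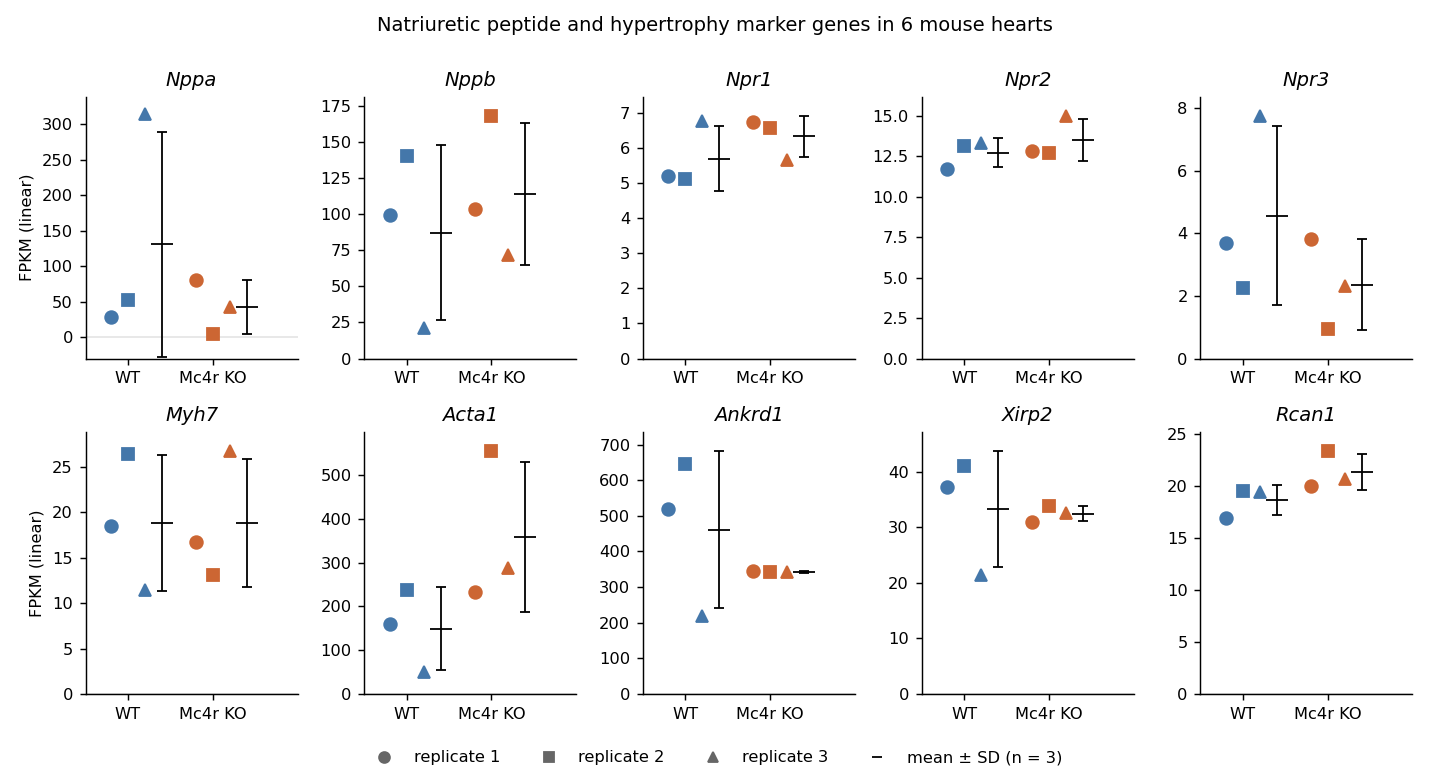
FPKM (linear axes) of the 10 genes in each of the 3 WT (blue) and 3 Mc4r KO (orange) libraries, with marker shapes for the replicate numbers and mean ± SD (n = 3) beside each group. WT replicate 3 (blue triangle) was the highest WT value for Nppa (314) and Npr3 (7.75) and the lowest for Nppb (21.4), Myh7 (11.5), Acta1 (49.7), Ankrd1 (219) and Xirp2 (21.4), and Rcan1 alone showed groups that did not overlap.

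Levels differed widely among the 10 genes. By mean FPKM, Ankrd1 ranked 91st of the 18035 genes tested and Acta1 145th, followed by Nppb (359th), Nppa (408th), Xirp2 (1018th), Rcan1 (1691st), Myh7 (1791st), Npr2 (2532nd), Npr1 (4883rd) and Npr3 (7069th). Over the 6 libraries, the ranges of neighbours in this order overlapped, from Ankrd1 (219 to 647) and Acta1 (49.7 to 555) down to Npr1 (5.12 to 6.76) and Npr3 (0.932 to 7.75), except for Npr2 (11.7 to 15.0), which lay above Npr1 in each library. In WT, the genes with the tightest replicates were Npr2 and Rcan1 (highest over lowest library 1.14 and 1.15), and those with the widest were Nppa (11.1) and Nppb (6.58). In Mc4r KO, the tightest were Ankrd1 (1.01) and Xirp2 (1.09) and the widest Nppa (15.0) and Npr3 (4.11).

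The gene for atrial natriuretic peptide, Nppa (ENSMUSG00000041616, mm10 chromosome 4, 148000722 to 148002079, plus strand), was the most variable of the 10. The 3 WT libraries had an FPKM of 28.2, 52.2 and 314 and the 3 Mc4r KO libraries one of 80.9, 5.40 and 42.9, in the order of their replicate numbers, from 4627 reads in the highest library to 71 in the lowest. The groups overlapped, and the highest and the lowest value differed more within each genotype (11.1-fold in WT and 15.0-fold in Mc4r KO) than the group means. The mean was 132 ± 159 in WT and 43.1 ± 37.7 in Mc4r KO (SD, n = 3 each). The log2 difference was −1.53, with a 95% interval from −4.29 to 1.22 and an adjusted p of 0.504, which spans levels from 0.0513-fold to 2.33-fold.

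Nppa was highest in the library with the most atrial transcript, 7.81 times the mean of the other WT libraries in WT replicate 3. Without that library the log2 difference was −0.52 (−3.20 to 2.15), and without Mc4r KO replicate 2 it was −0.39. With the atrial covariate it was −0.32. Among the 3 libraries with Sln at 0, Nppa was at 28.2 in WT replicate 1 and at 5.40 and 42.9 in Mc4r KO replicates 2 and 3, on both sides of the WT value. The part of atrial tissue in the difference between the genotypes was not tested. On the annotation, 61.5% of the exonic bases of Nppa are overlapped by Gm13054 on the opposite strand, which had at most 6 reads in a library, and whether the counting used strand is not stated.

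Nppb, the gene for B-type natriuretic peptide (ENSMUSG00000029019, chromosome 4, 147985788 to 147987205, plus strand), lies 13516 bases from Nppa. Its FPKM was 99.5, 141 and 21.4 in WT and 103, 168 and 71.4 in Mc4r KO, in the order of the replicates. The groups overlapped, and WT replicate 3 was the lowest library for Nppb where it was the highest for Nppa, while Mc4r KO replicate 2 was the highest for Nppb and the lowest for Nppa. The mean was 87.2 ± 60.6 in WT and 114 ± 49.2 in Mc4r KO (SD, n = 3 each), with a log2 difference of 0.68 (−0.92 to 2.28, adjusted p = 0.599). The sign of the Nppb difference turned when WT replicate 3 was left out, to −0.14 (−1.01 to 0.73), with the 3 Mc4r KO libraries then on both sides of the WT values.

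The ratio of Nppb to Nppa within a library does not depend on scaling between libraries. It was 3.53, 2.69 and 0.0680 in WT and 1.28, 31.1 and 1.67 in Mc4r KO, so WT replicate 3 and Mc4r KO replicate 2 were the extremes and the other 4 libraries lay between them. The groups overlapped, and the mean log2 ratio of −0.21 ± 3.18 in WT and 2.02 ± 2.56 in Mc4r KO differed by 2.23 (exact permutation test, two-sided, p = 0.6, adjusted over 4 ratios 0.8). The smallest p that 3 against 3 libraries can give is 0.1. The difference was 0.39 without WT replicate 3.

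**Figure D2:**
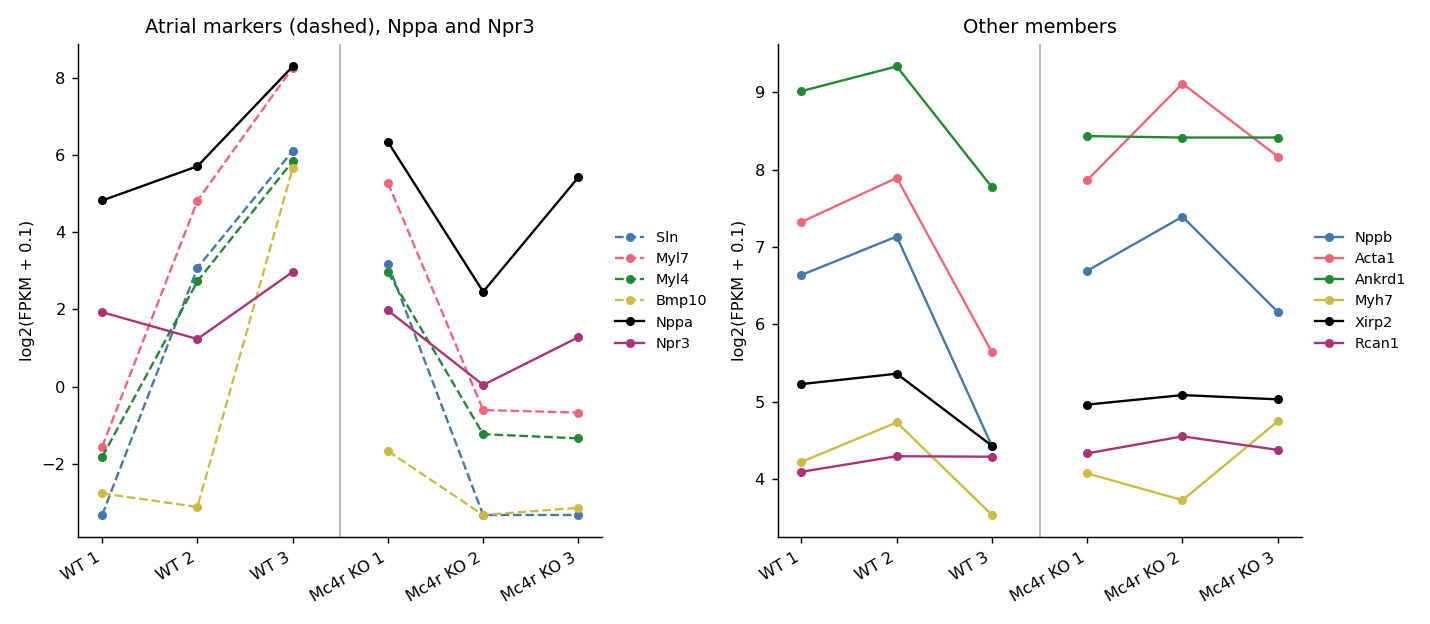
log2(FPKM + 0.1) of single genes in each library, with WT left and Mc4r KO right of the vertical line, where lines only join the points of a gene. Left, the atrial markers Sln, Myl7, Myl4 and Bmp10 (dashed) with Nppa and Npr3, which share their peak in WT replicate 3; right, Nppb, Acta1, Ankrd1, Myh7 and Xirp2, which share their lowest WT value in that library, and Rcan1, which varied little.

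The receptor genes were steadier than the peptide genes, with the exception of Npr3. Npr1, which encodes the receptor of both cardiac peptides (ENSMUSG00000027931, chromosome 3, 90450591 to 90465866, minus strand), was at 5.20, 5.12 and 6.76 FPKM in WT and at 6.75, 6.58 and 5.67 in Mc4r KO. The groups overlapped, with WT replicate 3 the highest library by a small margin. The log2 difference was 0.16 (−0.17 to 0.48, adjusted p = 0.557), which bounds a change of Npr1 between a 0.890-fold and a 1.40-fold level. Without WT replicate 3, the Npr1 difference was 0.28 (0.02 to 0.55, adjusted p = 0.152, not called). When libraries were scaled by their non-mitochondrial FPKM (median of all genes −0.19) it was −0.03.

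Npr2, the receptor gene for the C-type peptide (ENSMUSG00000028469, chromosome 4, 43631935 to 43651244, plus strand), was at 11.7, 13.1 and 13.3 FPKM in WT and at 12.8, 12.7 and 15.0 in Mc4r KO. The groups overlapped and all 6 values stood close together. Its log2 difference of 0.08 (−0.16 to 0.33, adjusted p = 0.676) had the second narrowest interval of the 10, from a 0.898-fold to a 1.25-fold level, and its sign turned under the quantile and the non-mitochondrial scaling (−0.02 and −0.11). It was 0.12 (−0.14 to 0.38) when WT replicate 3 was left out. Nppc, the gene of its ligand, had 4 reads in Mc4r KO replicate 1 and 0 in the other libraries.

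Npr3, the clearance receptor gene (ENSMUSG00000022206, chromosome 15, 11839896 to 11907287, minus strand), was at 3.71, 2.25 and 7.75 FPKM in WT and at 3.84, 0.932 and 2.33 in Mc4r KO. Like Nppa it was highest in WT replicate 3 and lowest in Mc4r KO replicate 2, and the groups overlapped. The mean was 4.57 ± 2.85 in WT and 2.37 ± 1.45 in Mc4r KO (SD, n = 3 each), with a log2 difference of −0.94 (−2.29 to 0.40, adjusted p = 0.397). Without WT replicate 3 it was −0.48 (−1.84 to 0.88), and in the libraries with Sln at 0, Npr3 was at 3.71 in WT replicate 1 and at 0.932 and 2.33 in Mc4r KO replicates 2 and 3. The part of atrial tissue in this difference was not tested.

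The ratio of Npr3 to Npr1, the clearance receptor against the signalling receptor, was 0.713, 0.440 and 1.15 in WT and 0.568, 0.142 and 0.411 in Mc4r KO. The groups overlapped, because the ratio of Mc4r KO replicate 1 lay above that of WT replicate 2. The difference of the mean log2 ratios, −1.64 ± 1.05 in Mc4r KO against −0.49 ± 0.69 in WT, was −1.15 (exact permutation test, two-sided, p = 0.2, adjusted over 4 ratios 0.6). It was negative in each fit that left out 1 library, from −1.56 to −0.56.

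The fetal sarcomere genes gave different values from each other. Myh7, the slow myosin heavy chain gene (ENSMUSG00000053093, chromosome 14, 54970684 to 54994626, minus strand), was at 18.5, 26.5 and 11.5 FPKM in WT and at 16.7, 13.1 and 26.7 in Mc4r KO. The highest values of the groups were nearly equal, as were the lowest, and the groups overlapped fully. The log2 difference of Myh7 was 0.02 (−0.80 to 0.84, adjusted p = 0.987), which leaves room for a level between 0.574-fold and 1.79-fold. Leaving out WT replicate 3 gave −0.30 (−1.06 to 0.47), and its sign turned under 6 of 21 alternatives, some of which cannot change the estimate.

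Myh6, the fast myosin heavy chain gene that dominates in the adult mouse heart and lies 3756 bases from Myh7, was at 2231, 2426 and 2714 FPKM in WT and at 2697, 2944 and 3082 in Mc4r KO. Myh7 therefore made up 0.830%, 1.09% and 0.423% of the Myh6 level in WT and 0.619%, 0.446% and 0.867% in Mc4r KO, at most 1.09% in each of the 6 hearts. The groups overlapped, and the log2 ratio differed by −0.23 (exact permutation test, two-sided, p = 0.8, adjusted over 4 ratios 0.8). The difference changed sign when WT replicate 2 (0.07) or Mc4r KO replicate 2 (0.01) was left out. Of the 50-base words of the Myh7 transcripts, 20.0% also occur in other genes, Myh6 among them, and 13.3% of its exonic bases are overlapped on the opposite strand, by Mhrt (8.60 to 17.3 FPKM) and others, and whether Myh7 reads were lost or gained there was not tested.

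Acta1, the skeletal muscle actin gene that the heart expresses strongly before birth and again under load (ENSMUSG00000031972, chromosome 8, 123891769 to 123894751, minus strand), showed the largest positive difference of the 10. Its FPKM was 160.2, 238 and 49.7 in WT and 233, 555 and 288 in Mc4r KO. Mc4r KO replicates 2 and 3 lay above each WT library, and Mc4r KO replicate 1 lay just under WT replicate 2, so the groups overlapped by 1 pair of libraries. The mean was 149 ± 94.6 in WT and 359 ± 172 in Mc4r KO (SD, n = 3 each). The log2 difference was 1.43 (0.06 to 2.80), a 2.70-fold level, with an unadjusted p of 0.0427 and an adjusted p of 0.225 from limma.

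The size of the Acta1 difference rested in part on WT replicate 3, its lowest library, which had 0.250 of the mean of the other WT libraries. Without it the log2 difference was 0.77 (−0.15 to 1.70), and with the atrial marker level as a covariate it was 0.86. The Acta1 difference was positive under each of the 21 alternatives, from 0.77 to 1.90, though some of them cannot change the estimate. It passed the test under none of them (lowest adjusted p 0.0973, with limma voom). Among the skeletal muscle markers, Myh4 was at 0 in each library, while Mybpc2 was at 2.99, 4.42 and 0.878 FPKM in WT and at 3.66, 3.85 and 4.04 in Mc4r KO, lowest in WT replicate 3 as Acta1 was. Tnnt1 (2.38, 2.27 and 6.31 in WT) and Actn3 (0.0735, 0 and 0.609 in WT) went the other way and were highest in WT replicate 3. In Mc4r KO, Tnnt1 was at 4.79, 3.34 and 4.61 and Actn3 at 0.134, 0.0682 and 0.0431. The summed FPKM of the 11 markers was 6.32, 7.60 and 9.04 in WT, also highest in that replicate among the WT libraries. In Mc4r KO the sum was 9.80, 8.25 and 9.99, each above WT replicates 1 and 2, and the groups overlapped. The part of skeletal muscle RNA in the Acta1 difference was not tested.

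Actc1, the main cardiac actin gene, was at 5495, 5470.1 and 4568 FPKM in WT and at 7123, 8307 and 7188 in Mc4r KO. The Mc4r KO libraries lay above all WT libraries, with a log2 difference of 0.54 (adjusted p = 0.180), short of the test. Acta1 stood at 2.91%, 4.35% and 1.09% of the Actc1 level in WT and at 3.28%, 6.68% and 4.01% in Mc4r KO. The groups overlapped, and the log2 ratio differed by 0.89 (exact permutation test, two-sided, p = 0.3, adjusted over 4 ratios 0.6), or by 0.32 without WT replicate 3. Words of 50 bases shared with other actin genes made up 2.02% of Acta1.

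**Figure D3:**
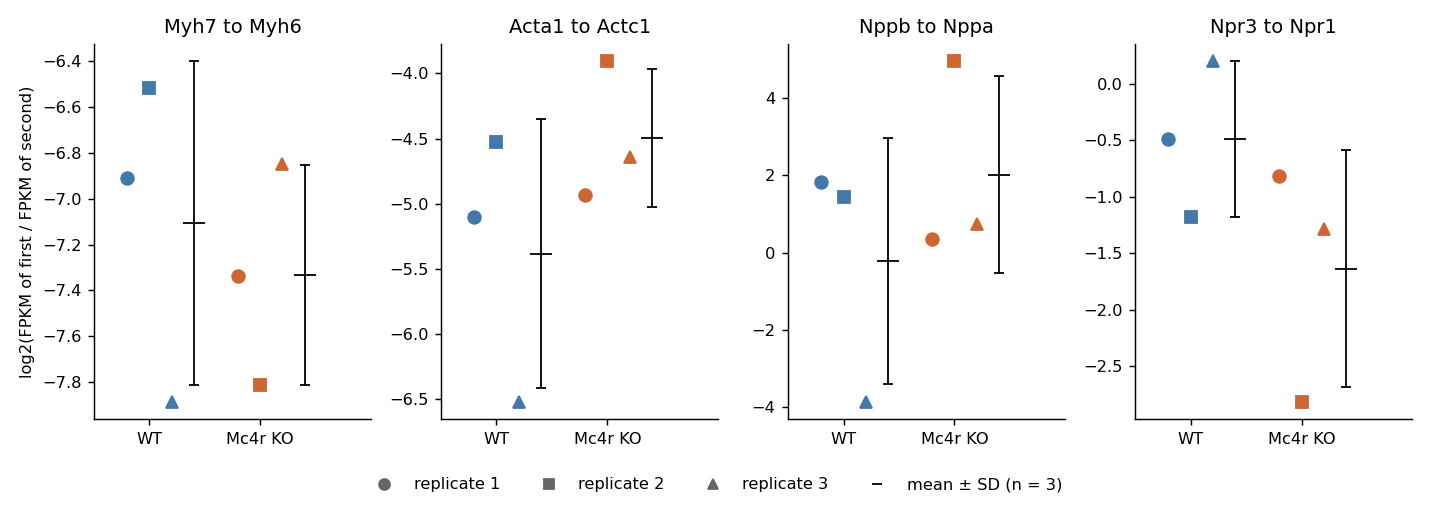
log2 ratios of FPKM within each library for Myh7 to Myh6, Acta1 to Actc1, Nppb to Nppa and Npr3 to Npr1, with WT in blue, Mc4r KO in orange, marker shapes for the replicate numbers and mean ± SD (n = 3) beside each group. The groups overlap in each of the 4 panels, and WT replicate 3 is the lowest library in the first 3 panels and the highest in the fourth.

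Ankrd1, which encodes the cardiac ankyrin repeat protein that binds titin and moves to the nucleus under strain (ENSMUSG00000024803, chromosome 19, 36111965 to 36119844, minus strand), was the most abundant of the 10. Its FPKM was 518, 647 and 219 in WT and 346, 342 and 342 in Mc4r KO. The Mc4r KO libraries were nearly equal (343 ± 2.61, SD, n = 3) and lay inside the wide WT range (461 ± 219.7, SD, n = 3), so the groups overlapped. The log2 difference was −0.29 (−1.15 to 0.57, adjusted p = 0.695).

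Ankrd1 was the only one of the 10 genes whose call depended on WT replicate 3. Without that library it was 0.593-fold in Mc4r KO, with a log2 difference of −0.75 (SE 0.11, −1.02 to −0.49) and an adjusted p of 0.0163, just past the fold threshold. Without WT replicate 3, 4.04% of the 17966 genes tested passed, so far more genes were called in that fit than in the one on all libraries. That fit sets Mc4r KO (mitochondrial share of FPKM 43.0% to 46.6%) against WT replicates 1 and 2 alone (59.3% and 57.4%). The part of this gap in the calls was not tested. Without WT replicate 2 the Ankrd1 difference was 0.03 instead, and with the atrial marker level as a covariate it was −0.61. Over the 21 alternatives the adjusted p of Ankrd1 ran from 0.0163 to 0.977.

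Xirp2, the gene of an actin-binding protein of the intercalated disc (ENSMUSG00000027022, chromosome 2, 67446002 to 67526614, plus strand), followed the order of Ankrd1 in WT. Its FPKM was 37.3, 41.0 and 21.4 in WT and 31.0, 33.8 and 32.5 in Mc4r KO. The Mc4r KO values again lay inside the WT range, and WT replicate 3 was again the lowest library. The log2 difference was 0.02 (−0.52 to 0.56, adjusted p = 0.976), and without WT replicate 3 it was −0.27 (−0.46 to −0.08, adjusted p = 0.0824, not called). Its sign turned under 7 of 21 alternatives, some of which cannot change the estimate.

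Rcan1, the calcineurin inhibitor gene (ENSMUSG00000022951, chromosome 16, 92391953 to 92470867, minus strand), was at 16.9, 19.5 and 19.4 FPKM in WT and at 20.0, 23.3 and 20.6 in Mc4r KO. Each Mc4r KO library lay above each WT library, by a narrow margin. The mean was 18.6 ± 1.45 in WT and 21.3 ± 1.76 in Mc4r KO (SD, n = 3 each), a 1.14-fold level with a log2 difference of 0.19 (−0.04 to 0.43, adjusted p = 0.314). Without WT replicate 3 the Rcan1 difference was 0.23 (−0.03 to 0.48). Scaling by the non-mitochondrial FPKM put it at -4.35e-05, where the median of all genes was −0.19.

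WT replicate 3 was the lowest of the 6 libraries for 5 of the 10 genes (Nppb, Myh7, Acta1, Ankrd1 and Xirp2) and the highest for 3 (Nppa, Npr3 and Npr1). Over all 16529 genes without ties it was the lowest library for 15.7% and the highest for 16.3%. In that library Nppa stood at 7.81 times and Npr3 at 2.60 times the mean of WT replicates 1 and 2, while Nppb, Acta1, Ankrd1, Myh7 and Xirp2 stood at 0.178, 0.250, 0.375, 0.510 and 0.547 of it.

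**Figure D4:**
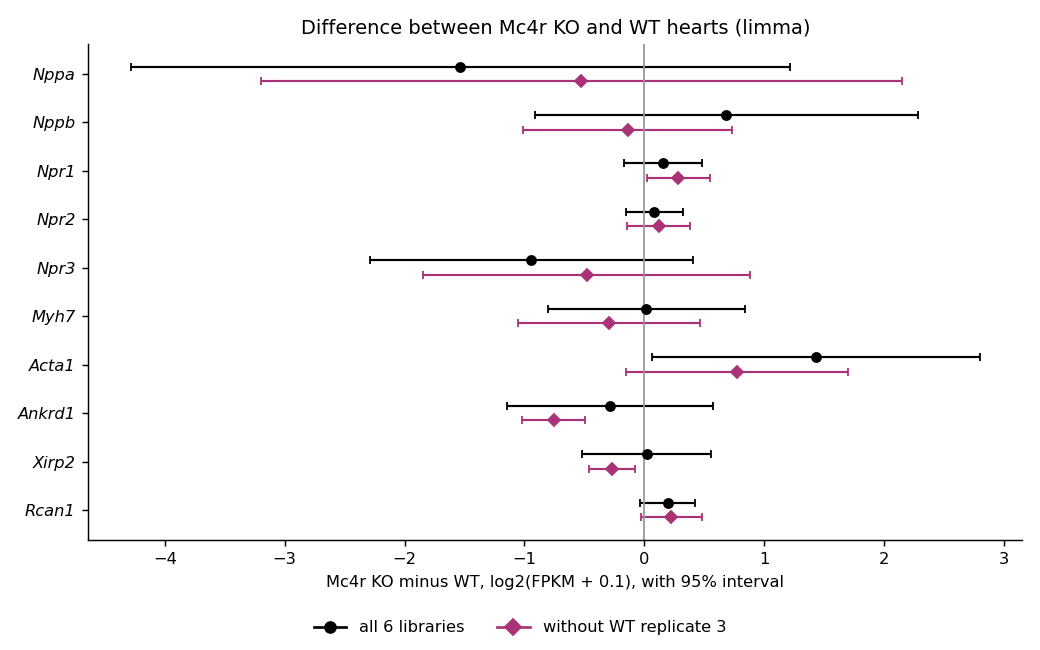
Difference between Mc4r KO and WT on the log2(FPKM + 0.1) scale with its 95% interval (limma) for the 10 genes, on all 6 libraries (black circles) and without WT replicate 3 (purple diamonds). Without that library Nppb moved from 0.68 to −0.14, Acta1 from 1.43 to 0.77 and Ankrd1 from −0.29 to −0.75. The intervals of these 3 genes and of Xirp2 narrowed the most.

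Genes that act around these 10 were read in 4 lists. Of 20 genes of peptide processing and cyclic GMP, 18 were tested and 0 were called, with 1 higher and 5 lower at an unadjusted p under 0.05 and a median log2 difference of −0.26 (−0.01 over all genes tested). At that level 2169 of all 18035 genes tested were higher and 1592 lower, the background for the counts of all 4 lists. Furin, a protease that cleaves the B-type precursor, was at 7.26, 8.03 and 9.69 FPKM in WT and at 14.0, 13.6 and 16.0 in Mc4r KO. It was higher without overlap, as were 14.1% of all genes. The log2 difference of Furin was 0.80 (adjusted p = 0.0535) and passed the test under 7 of 21 alternatives. Pde1c, a phosphodiesterase that degrades cyclic GMP and cyclic AMP, was at 3.81, 2.92 and 3.81 in WT and at 1.77, 1.37 and 2.04 in Mc4r KO, with a log2 difference of −0.99 (adjusted p = 0.0639) and 5 of 21 alternatives past the test. Ide, the insulin-degrading enzyme that also cleaves natriuretic peptides, was at 13.9 to 18.0 in WT and 8.34 to 11.3 in Mc4r KO, a log2 difference of −0.66 (adjusted p = 0.0919).

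Of 18 genes of calcineurin, NFAT and CaMKII signalling, 17 were tested and 0 were called, with 1 higher and 3 lower at an unadjusted p under 0.05 and a median of −0.15. Akap5, an anchor that holds calcineurin and protein kinase A at the membrane, was low at 0.800 to 1.06 FPKM in WT and 0.264 to 0.434 in Mc4r KO, a log2 difference of −1.20 (adjusted p = 0.0721). Rcan2, a relative of Rcan1, was at 68.4 to 83.3 in WT and 92.6 to 108 in Mc4r KO, higher by 0.42 on the log2 scale (adjusted p = 0.105). Ppp3ca, a catalytic subunit of calcineurin, was at 7.39 to 8.73 in WT and 5.75 to 6.20 in Mc4r KO, a log2 difference of −0.39 (adjusted p = 0.108). The groups of these 3 genes, which have the smallest p of their list, did not overlap, as was so for 26.4% of all genes, and none of them passed the test.

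All 20 transcriptional regulators of these promoters and of cardiac growth were tested and 0 were called, with 2 higher and 4 lower at an unadjusted p under 0.05 and a median of 0.03. Mef2a, a MADS-box activator of muscle genes, was at 14.9, 14.0 and 13.0 FPKM in WT and at 9.90, 9.50 and 9.63 in Mc4r KO, a log2 difference of −0.52 (adjusted p = 0.0554). Nkx2-5, the cardiac homeobox factor, was at 32.6 to 42.9 in WT and 50.2 to 57.9 in Mc4r KO (log2 difference 0.51, adjusted p = 0.0983). Srf, the factor that binds CArG boxes, was at 19.6 to 27.7 in WT and 31.8 to 44.0 in Mc4r KO (log2 difference 0.60, adjusted p = 0.124). These 3 regulators, again those with the smallest p of their list, had groups without overlap, as did 26.4% of all genes, and none was called.

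Of 25 other genes of hypertrophy and stretch, all tested, 1 was called higher and 0 lower, with 6 higher and 3 lower at an unadjusted p under 0.05 and a median of 0.01. The called gene was Fhl2, which encodes a LIM-only protein that binds titin and restrains calcineurin in the heart. Fhl2 was at 591, 604 and 549 FPKM in WT and at 1017, 1185 and 1089 in Mc4r KO, with no overlap and little spread within a group. Its log2 difference was 0.91 (SE 0.11, 0.65 to 1.18), with an adjusted p of 0.0355, in the direction in which 0.316% of all genes were called.

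Fhl2 kept a difference between 0.72 and 0.97 under the 21 alternatives, and its call was lost under 10 of them, among them each fit that left out 1 library other than WT replicate 3 and the scaling by non-mitochondrial FPKM (0.72). Its adjusted p ran from 0.00141 to 0.206 over these. Fhl1, a LIM-only relative that also binds titin, was at 27.1 to 31.3 FPKM in WT and 42.9 to 49.1 in Mc4r KO, with a log2 difference of 0.69 and an adjusted p of 0.0415, under the fold threshold. Nebl, which encodes the thin filament protein nebulette, was at 23.0 to 26.3 in WT and 18.0 to 18.6 in Mc4r KO (log2 difference −0.39, adjusted p = 0.0871). The summed FPKM of 7 fibroblast markers was 205 to 218 in WT and 152 to 177 in Mc4r KO, without overlap, although none of the 7 was called. Dcn made up most of that sum (109 to 125 in WT and 77.1 to 87.0 in Mc4r KO), and Col1a1 stood the other way (mean 15.4 in WT and 20.2 in Mc4r KO). The ventricular sum, given above, did not overlap either, while the endothelial sum (7 genes, 164 to 194 and 171 to 199) and the smooth muscle sum (5 genes, 34.5 to 45.8 and 37.8 to 55.5) did. The adipocyte sum (6 genes) was at most 1.02 and rested on few reads, 0 to 11 in a library for Cfd. The part of these cell types in the differences was not tested.

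**Figure D5:**
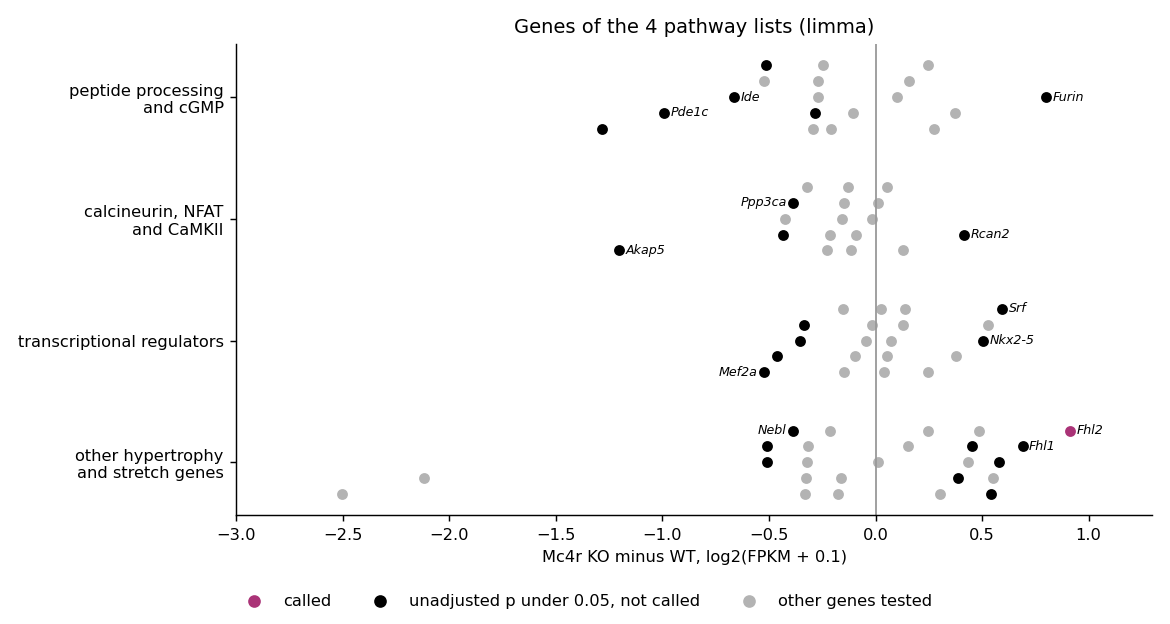
Difference between Mc4r KO and WT on the log2(FPKM + 0.1) scale (limma) of each tested gene of the 4 lists, with the called gene in purple, genes with an unadjusted p under 0.05 in black and others in grey, and vertical position within a list only to separate points. Fhl2 at 0.91 is the called gene, and the labelled genes are those named in the text.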

How the data were processed

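Libraries were made with a NEBNext Ultra RNA kit. Read filtering, alignment with HISAT2 (2.0.5, mm10, per the labels), counting with featureCounts and a DESeq2 test were done by the authors, who deposited FPKM for each gene and library, the only unit used here. Whether counting used strand is not given in the sources used here. The product of FPKM and gene length fell on multiples of a fixed amount in each library for 100% of values (within 0.05 of a read), which gave the reads back. The floor of 3 reads covers counting error only.

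Because FPKM are not counts, log2(FPKM + 0.1) was tested with limma (3.58.1, R 4.3.3, with its trend) after median-of-ratios scaling, on all 6 libraries and without covariates. The scaling factors were 1 throughout, so the deposited values were already on that scale and the step changed nothing. The filter was a mean FPKM of 0.1, which left 18035 genes, over all of which the two-sided p-values were adjusted. Calls require an adjusted p under 0.05 together with a log2 fold change beyond 0.75 in either direction. The script was tested on simulated data with known changes. The simulated spread was not that of the genes studied, so this checks the code and not the power to find changes in them. Ratios of genes were compared by exact permutation over the libraries (scipy 1.17.1). Exons and shared words of 50 bases come from GENCODE M21, which held 99.9% of the identifiers, and promoters from RefSeq (GRCm38.p6). With 1 library per mouse, the limma p-values set a difference against the spread between these mice, moderated over all genes tested. Those of the exact test rest on rearranging the libraries between the groups.

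The 10 genes, the 4 lists, the marker lists and the tests were chosen with earlier results of these data known. Genes named besides the 10 are Myh6 and Actc1 for the ratios, the defining markers, the called genes and the 3 with the smallest unadjusted p in each list, and, for Nppa, Nppb, Myh7, Acta1 and Ankrd1, the 2 protein-coding genes of mean FPKM 1 or more with the closest profile. Nppc, Bmp10, Kcnj3, Stard10, Gm13054, Mhrt, Tnnt1, Tnni3, Ttn, Pln, Dcn, Col1a1, Cfd, Dpp4 and Hand2 were named after seeing their values. One gene that this rule names is not reported here. Alternatives changed the pseudocount (1 or 0.01), the filter (none, or a mean FPKM of 1), the scaling (values as deposited, quantiles, or the FPKM outside the mitochondrial chromosome), the moderation (no trend, robust, array weights), the block of replicate numbers, the input (limma voom on recovered reads, or protein-coding genes) and the libraries (each left out in turn). The atrial marker level as a covariate and the 3 libraries with Sln at 0 were added after seeing the data.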

Additional observations from a re-analysis of the deposited data

How the results depend on the processing

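The 10 genes gave 0 calls under each alternative except without WT replicate 3, where Ankrd1 was called, so that fits without 1 library gave 0 to 1 calls. The sign of the difference held under all 21 alternatives for Nppa, Npr3 and Acta1, and turned under 1 for Nppb, Npr1, Ankrd1 and Rcan1, 2 for Npr2, 6 for Myh7 and 7 for Xirp2. The filters, the fits without the trend or robust, the replicate block and the protein-coding genes leave the estimate of a gene unchanged by design. The values as deposited repeat the main fit, since all scaling factors were 1. The sign could not turn under these alternatives. Scaling by non-mitochondrial FPKM moved the median of all genes to −0.19. The list of peptide processing and cyclic GMP had 2 calls at a mean FPKM of at least 1, with array weights and for protein-coding genes only (Furin and Pde1c), 1 with robust empirical Bayes and with the atrial covariate (Furin), 3 with limma voom (also Dpp4), and 0 to 3 without 1 library, the 3 without WT replicate 3 (Furin, Ide and Pde1c). The calcineurin list had 1 call, Akap5, with array weights, limma voom, protein-coding genes only and the atrial covariate, and 0 to 1 without 1 library. The regulators had 0 to 1 without 1 library (Hand2 without WT replicate 3). The other hypertrophy genes lost their call of Fhl2 and had 0 without the filter, with the non-mitochondrial sum, without the trend, with the replicate block and in the 3 libraries with Sln at 0, and 0 to 1 without 1 library. The set with Sln at 0 leaves 1 WT library, which is assumed to vary like the Mc4r KO libraries. The number of calls over all genes, 83 on all libraries, was 44 and 84 at pseudocounts of 1 and 0.01, 22 without the filter, 147 at a mean FPKM of at least 1, 49 after quantile normalization, 41 with the non-mitochondrial sum, 21 without the trend, 98 robust, 435 with array weights, 11 with the replicate block, 317 with limma voom, 204 for protein-coding genes, 377 with the atrial covariate, 0 in the 3 libraries with Sln at 0, 726 without WT replicate 3 and 7 to 14 without any other library. The cause of these changes was not tested. The exact test of the ratios cannot reach the threshold with 3 or fewer libraries a group, so only their values were compared, with Myh7 to Myh6 between −0.62 and 0.07, Acta1 to Actc1 between 0.32 and 1.32, Nppb to Nppa between 0.39 and 3.24 and Npr3 to Npr1 between −1.56 and −0.56 without 1 library.

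The genotypes share replicate numbers, but nothing in the labels says that a number marks a litter or day, and deviations of same-numbered libraries from their group means correlated at −0.14, 0.01 and −0.08 across genes, so the numbers were not taken as pairs. With the replicate block the 10 genes had 0 calls. The ratio differences (−0.23, 0.89, 2.23 and −1.15) are the same with and without the block by arithmetic, so they cannot bear on pairing. At this depth Nppa in its lowest library rests on 71 reads and Npr3 on 133, and Mc4r is not detectable.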

Other observations

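The genes whose profile over the 6 libraries was closest to that of 5 of the 10 genes were found among 10220 protein-coding genes, by the root mean square distance of mean-centred log2(FPKM + 0.1) values. For Acta1 the closest was Myot, which encodes the Z-disc protein myotilin (distance 0.25), where Acta1 itself varied by 1.06 around its mean. Myot was at 17.4, 23.9 and 4.09 FPKM in WT and at 23.7, 38.4 and 33.1 in Mc4r KO, lowest in WT replicate 3 and highest in Mc4r KO replicate 2, as Acta1 was. For Nppb the closest were Mybpc2, the fast skeletal myosin-binding protein C gene (0.42), which was at 2.99, 4.42 and 0.878 in WT and at 3.66, 3.85 and 4.04 in Mc4r KO, and Acta1 (0.48).

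For Nppa the closest were Ahsg, which encodes the plasma protein fetuin-A (distance 0.44), and Comp, a cartilage and tendon matrix gene (0.82), both highest in WT replicate 3 (5.80 and 3.78 FPKM) and lowest in Mc4r KO replicate 2 (0.0899 and 0.222). Ankrd1 was followed most closely by Cep126 and Akr1c14 (0.16 and 0.17), and Myh7 by Snai3 and Pcgf6 (0.21 and 0.22). These are the smallest distances among many genes over 6 libraries, so they describe the profiles only.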
